A study of Equus caballus with 26 samples.

Results

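The genes described here carry the symbols of mitochondrial ribosomal proteins. They were taken by name as every gene whose symbol begins with *MRPL* (large subunit) or *MRPS* (small subunit), read from the gene name or the description that the array gives each probe, with LOC100053006 read as *MRPL35*. This gave 69 genes of the 24415 gene names on the array, 42 with an *MRPL* and 27 with an *MRPS* symbol. Each was read by its brightest probe, and each of the 69 was measured, since a probe had to be well above background, as the scanner software calls it, on at least 3 arrays. On all 26 arrays 67 members were well above background, while *MRPL49* was so on 24 and *MRPS36* on 25.

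The study asked how whole blood responded to an endurance ride of 160 km. The record of the series describes a cohort, larger than that of the study's methods, of 61 Arabian or half-bred Arabian horses with a mean age of 10 ± 2 years (SEM), and blood RNA was drawn into a preserving tube before the ride (T0) and after it (T1). The arrays analysed here cover a part of the horses in each set of the study. The experimental set is represented by horses 2, 32 and 41, which were geldings and were measured at both times, so that each served as its own control (6 arrays). The validation set compared different horses, 7 at T0 (3 females and 4 geldings) with 13 at T1 (3 females and 10 geldings), none of them measured at both times. By the methods of the study, most of the validation horses sampled at T0 were later eliminated from the ride, whereas all of those sampled at T1 finished it. Outcomes of single horses, which the labels do not give, were not used here, so the time point and the outcome of the ride were not separated in this set. The ride, as the time point, is the only treatment in the labels.

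Mitochondria keep a small genome of their own, which encodes a few core subunits of the respiratory chain and of ATP synthase, and a dedicated ribosome translates them inside the organelle. All proteins of that ribosome are encoded in the nucleus, made in the cytosol and imported, so their mRNAs are ordinary polyadenylated transcripts that an expression array can read. Many have a counterpart in the bacterial ribosome, and others exist in mitochondria only. In blood these transcripts come from nucleated white cells, among which lymphocytes and monocytes rely on mitochondria more than the mature neutrophil, which lives largely on glycolysis.

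The share of probes well above background ran from 60.2% to 75.3% over the arrays. The level of a gene is given here as the log2 of its signal minus the 75th percentile of its own array. A level of 0 is thus as bright as that percentile. Each probe has its own brightness, so levels of different genes are not compared as expression. Signal orders genes only in a naming rule and beside the spread. Markers of blood cells checked the tissue and moved between the time points. In the validation set 8 of 9 T cell and 7 of 7 B cell markers fell, as did 5 of 7 NK and cytotoxic cell markers, of which 1 rose. In the same set 5 of 6 neutrophil markers, 4 of 5 genes of immature neutrophil granules and 2 of 3 monocyte markers rose. The mean level of the T cell markers ranged from -0.07 to 1.25 at T0 and from -0.96 to 0.09 at T1, that of the neutrophil markers from 3.26 to 5.41 and from 4.99 to 6.12, and that of the monocyte markers from 4.06 to 5.38 and from 5.21 to 6.39. One validation T0 array, of horse 47, stood at the T1 end of these scales, with -0.07 for T cell and 5.41 for neutrophil markers, and results that rest on it are given with and without it. In whole blood, fewer cells of a type and less RNA per cell cannot be told apart.

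The members were read by 158 probes. Of the brightest, 48 were 60 bases and 21 were 50 bases long. The sequences of the 6 members with the lowest T1 level relative to T0 in the validation set are shown because the comparison below turns on them. They are printed 5′ to 3′ as the array carries them.
*MRPL34*: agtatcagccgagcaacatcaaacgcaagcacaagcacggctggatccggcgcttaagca
*MRPL12*: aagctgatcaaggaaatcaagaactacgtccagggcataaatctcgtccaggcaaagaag
*MRPS26*: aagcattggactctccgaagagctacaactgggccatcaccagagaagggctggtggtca
*MRPL2*: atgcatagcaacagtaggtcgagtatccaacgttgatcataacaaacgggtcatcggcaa
*MRPL23*: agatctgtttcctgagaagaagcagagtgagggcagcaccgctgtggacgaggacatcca
*MRPL28*: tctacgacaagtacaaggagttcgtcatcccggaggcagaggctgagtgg

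The array's own annotation, on the build that it names EquCab1, places the *MRPL2* probe at chr20:35545513-35545572 and the *MRPS26* probe at chr22:19658980-19659039, both on the minus strand. The *MRPL12* probe lies at chr11:244047-244212 on the minus strand, a span longer than the probe. The *MRPL34* and *MRPL23* probes were placed on unassigned sequence, and the 50-base *MRPL28* probe carries no position. With one exception these genes have a bacterial relative: *MRPL2* is the counterpart of the protein that shapes the peptidyl transferase centre, *MRPL12* of the mobile stalk protein that recruits translation factors, *MRPL23* of a protein at the mouth of the exit tunnel, and *MRPL34* and *MRPL28* of proteins of the same numbers. *MRPS26* is found only in the small subunit of mitochondria.

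In the experimental set, the paired comparison of 3 horses, 3 of the 69 members fell after the ride and none rose. Most members lay below 0 without passing the test. Over all 17490 gene names tested, 4.04% fell, 6.22% rose and 10.3% changed in either direction. With these settings the share of members called (3 of 69) was therefore near the background. It was higher under some other settings. Of the 69, 19 fell with the series table, against 6.65% of all, and 19 with normexp and quantile normalization together, against 7.07%. With all 26 arrays in a single fit and the same scaling 12 fell, against 6.73%. Quantile normalization alone gave 6, against 5.85%. By sign alone, 65 of 69 members had a fitted difference below 0, against 48.5% of all gene names, and the median difference was -0.57 on the log2 scale, against 0.03. In 43 members the T1 array was the lower in all 3 horses, a pattern found in 25.6% of all gene names. None was higher in all 3, against 25.8% of all.

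The 3 members that fell were *MRPL2*, *MRPL34* and *MRPL23*. *MRPL2* stood at -0.62, -0.40 and -1.06 at T0 in horses 2, 32 and 41, and at -2.03, -2.15 and -2.17 at T1. The T1 arrays of these horses lay close together and all below the T0 arrays, a fitted difference of -1.42 (SE 0.32, adjusted p = 0.0303 in limma), or 2.67-fold lower. *MRPL34* stood at 2.18, 1.92 and 1.80 at T0 and at 0.39, 0.91 and 0.38 at T1. Again the groups did not overlap, and the difference was -1.40 (SE 0.33, adjusted p = 0.0332). The call of *MRPL34* ended under 4 alternatives, among them the mean over its probes. *MRPL23* went from 1.91, 1.48 and 1.76 to 0.42, 0.50 and 0.71, a difference of -1.17 (SE 0.32, adjusted p = 0.0497), with no overlap either. Without horse 2 no member passed (0.206% of all gene names fell), without horse 32 none did (0.509% of all), and without horse 41 there were 3 (7.47% of all).

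The same direction was found in each horse, to differing degrees. In horse 2, 65 members were lower at T1 with a median difference of -0.83, in horse 32 there were 59 with a median of -0.58, and in horse 41 there were 51 with a median of -0.33. The median over all gene names differed between the horses in the same order, at -0.17, close to 0 and 0.18. Without an adjustment 20 of the 69 members and 5234 of all 17490 gene names tested had p under 0.05 in limma, so the members' share was near the background. The markers moved here as well, with 6 of 9 T cell markers lower and 4 of 6 neutrophil markers higher past the threshold, and their part in the members' values was not tested.

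**Figure D1:**
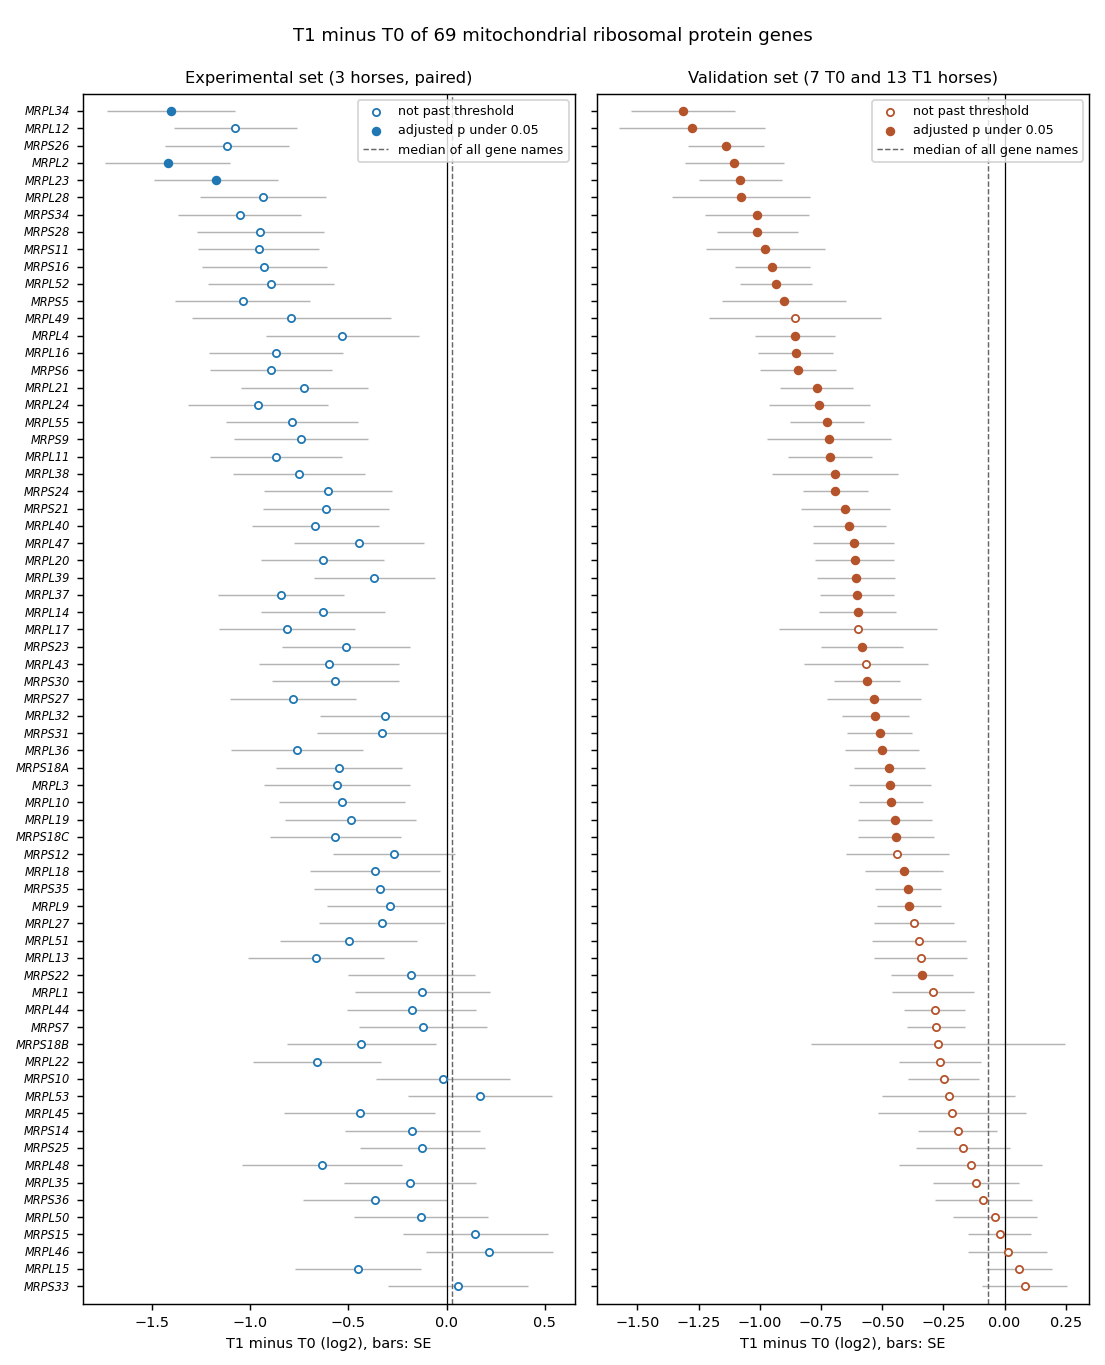
Difference between T1 and T0 on the log2 scale (x axis) for each of the 69 genes (y axis) in the experimental set (left, 3 horses) and the validation set (right, 7 against 13 horses). Points are fitted differences, bars their SE, filled colour marks genes past the adjusted threshold and the dashed line is the median of all gene names. Of the 69 points, 65 lie below 0 on the left and 66 on the right.

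In the validation set, the comparison of different horses, 44 of 69 members fell and none rose. Across all 17405 gene names 24% fell, 20.2% rose and 44.2% changed either way. The fitted difference was below 0 in 66 members, against 54.1% of all gene names, with a median of -0.53 against -0.07. The differences ran from -1.32 to 0.08, with quartiles of -0.76 and -0.29, and the median fold among the 44 that fell was 1.59. The nearest to 0 among those called was *MRPS22*, found only in mitochondrial ribosomes, at -0.34 (SE 0.13, adjusted p = 0.0339), whose call ended with the scan day as a term (adjusted p = 0.195) and with no filter on dim probes (adjusted p = 0.0529).

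*MRPL34* ranged from 0.66 to 2.60 at T0 (median 2.17) and from 0.12 to 1.03 at T1 (median 0.61). The overlap came from horse 47 alone, since the next lowest T0 horse, horse 40, stood at 1.40. The difference was -1.32 (SE 0.21, adjusted p = 6.97e-05), or 2.49-fold lower. *MRPL34* has a second probe, with a stretch of at most 5 bases in common, that differed by only -0.27 (SE 0.15, adjusted p = 0.135 in a fit of every probe). The fall of this gene was therefore seen by 1 of its 2 probes.

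*MRPL12* ranged from -0.75 to 1.02 at T0 (median 0.51) and from -2.91 to 0.02 at T1 (median -1.06). The T1 range was wide, with horse 21 at -2.91 and horse 24 at 0.02, and the groups overlapped. Its difference of -1.28 (SE 0.30, adjusted p = 0.00162) was estimated with less precision than those of the other 5.

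*MRPS26* ranged from 1.16 to 1.94 at T0 (median 1.67) and from -0.16 to 1.20 at T1 (median 0.47). Horse 24 at T1 (1.20) just exceeded horse 47 at T0 (1.16), and no other pair of arrays overlapped. The difference was -1.14 (SE 0.16, adjusted p = 1.51e-05), 2.20-fold lower.

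*MRPL2* ranged from -1.72 to -0.36 at T0 (median -0.81) and from -2.61 to -1.20 at T1 (median -2.12). Horses 40 and 47 were the lowest at T0, and horses 24 and 55 the highest at T1, which made the groups overlap. The difference was -1.10 (SE 0.20, adjusted p = 0.000206), 2.15-fold lower.

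*MRPL23* ranged from 0.91 to 2.33 at T0 (median 1.91) and from 0.35 to 1.50 at T1 (median 0.74). Apart from horse 47 no T0 array lay below 1.76, so that without it the groups were separate. The difference was -1.08 (SE 0.17, adjusted p = 5.58e-05), 2.11-fold lower.

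*MRPL28* ranged from -0.83 to 0.86 at T0 (median 0.11) and from -2.71 to -0.08 at T1 (median -0.79). As for *MRPL12*, horse 21 was the lowest and horse 24 the highest at T1, and horse 40 was the lowest at T0. The difference was -1.08 (SE 0.28, adjusted p = 0.00398), with overlapping groups.

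**Figure D2:**
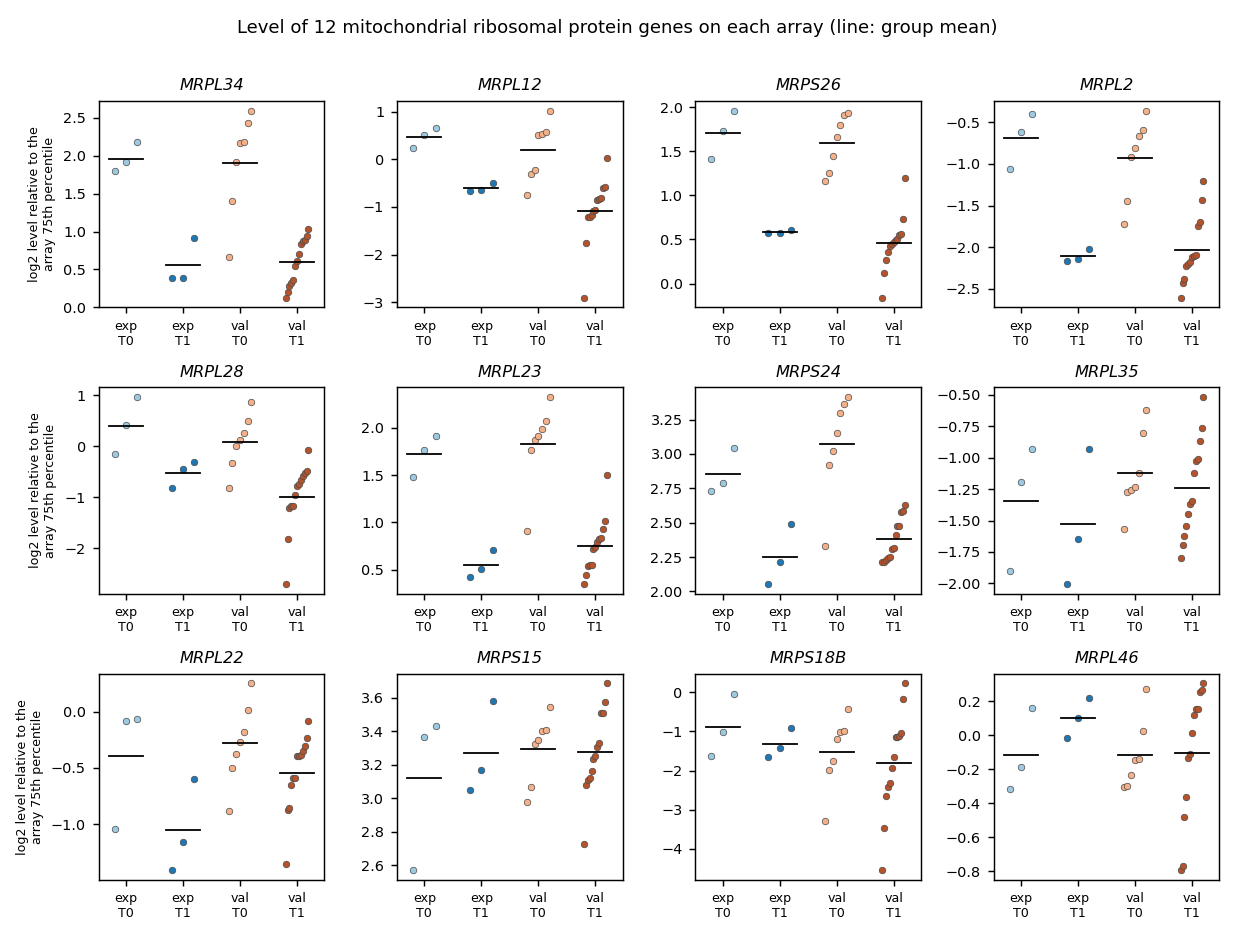
Level of 12 genes on each array (y axis, log2 relative to the 75th percentile of the array), by set and time point (x axis: experimental T0 and T1, validation T0 and T1). Each point is 1 array and each line a group mean. For *MRPL34* the 13 validation T1 points reach 1.03 at most, and only the T0 point of horse 47, at 0.66, lies among them.

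No member had every validation T1 array below every T0 array, a separation that 0.764% of all gene names showed. Without T0 horse 47, 13 members did, against 6.33% of all. Of the 13, 6 belong to the genes named by rule: *MRPL23*, *MRPL32*, *MRPL34*, *MRPL52*, *MRPS24* and *MRPS26*. Leaving the horse out of the fit gave 48 members that fell and a median of -0.61, compared with 44 and -0.53, while the share over all gene names was 26%, compared with 24%.

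Averaged over the 69 members, the level was between 0.09 and 0.42 on 6 of the 7 validation T0 arrays and -0.24 on that of horse 47. It was between -0.48 and -0.06 on the 13 T1 arrays. In the experimental set it was 0.34, 0.16 and 0.14 at T0 and -0.43, -0.47 and -0.19 at T1 in horses 2, 32 and 41. The members' mean on the array of horse 47 therefore lay within the T1 range, as its marker levels did.

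**Figure D3:**
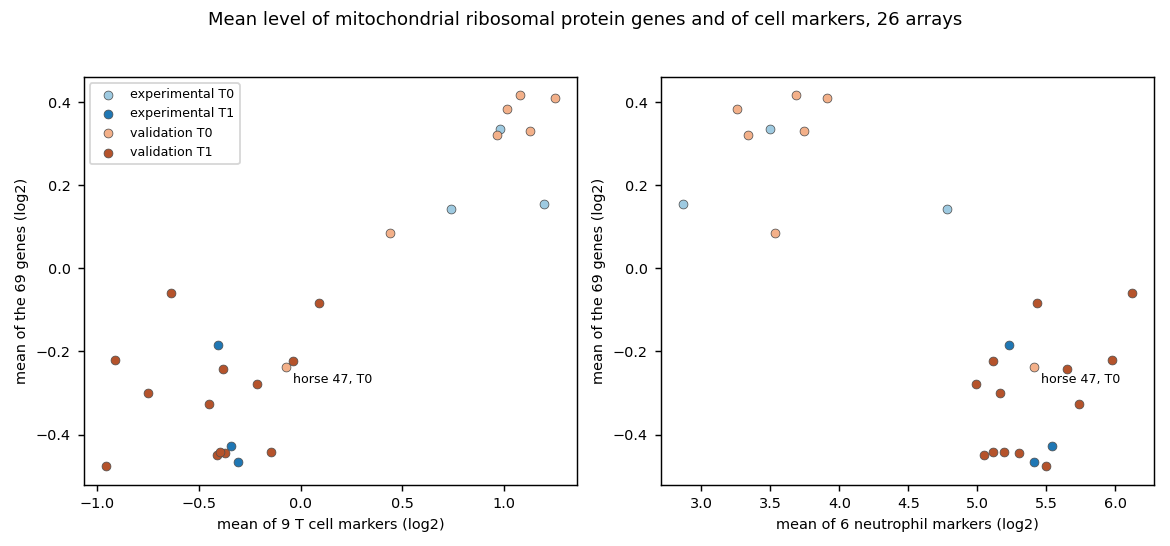
Mean level of the 69 members (y axis, log2) against the mean level of 9 T cell markers (left) and of 6 neutrophil markers (right) on the 26 arrays, coloured by set and time point. The array of horse 47 at T0 (member mean -0.24, T cell mean -0.07, neutrophil mean 5.41) lies among the T1 arrays.

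The arrays had been scanned on 8 days, and 5 of these held validation arrays of both time points. Within these days the median difference of the members was -0.36, -0.63, -0.82, -0.59 and -0.16, from 2 to 5 arrays each. In 24 members T1 was lower than T0 within every one of the 5 days, against 17.8% of all gene names. *MRPL34* was lower within them by 1.14 to 1.68, *MRPS26* by 0.70 to 2.10 and *MRPL2* by 0.55 to 2.03. *MRPL23* was lower within 4 of them and level (0.01) on the fifth, whose T0 arrays included horse 47. With the scan day as a further term 33 members fell, against 22.1% of all gene names. No pair of the experimental set shared a slide or a day.

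By place in the ribosome, the falls were spread over both subunits. In the validation set 28 of the 44 genes of the large subunit fell, with a median difference of -0.56, and 16 of the 25 of the small subunit, with a median of -0.51. *MRPS30* and *MRPS18A* were counted with the large subunit, where their proteins sit. The others, *MRPS36* among them, were counted by symbol. Of the genes with a bacterial relative 29 of 42 fell (median -0.56), and of those specific to mitochondria 15 of 27 (median -0.53). Of all gene names 24% fell, with a median of -0.07, which is also the background for the smaller groups that follow. These shares were not tested against each other.

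The stalk recruits elongation factors, and 3 of its 4 measured genes fell: *MRPL12*, *MRPL11* (-0.71) and *MRPL10* (-0.47). The brightest probe of *MRPL11* carries a description of a mouse gene on the array, and a second probe of the gene gave -1.15 (r = 0.32 between them). The fourth, *MRPL53*, differed by -0.23 without passing. At the exit tunnel, through which the nascent chain leaves towards the inner membrane, 4 of 7 fell. They included *MRPL23* and *MRPL24*, which ranged from -1.58 to -0.39 at T0 (median -0.95) and from -2.42 to -0.62 at T1 (median -1.83), with overlap and a difference of -0.76 (SE 0.21, adjusted p = 0.00526). *MRPL22*, whose protein lines the tunnel, and *MRPL45*, which anchors the ribosome at the inner membrane, did not pass.

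In the central protuberance 4 of 7 genes fell. One was *MRPS30*, which ranged from -0.16 to 0.83 at T0 (median 0.43) and from -0.51 to 0.13 at T1 (median -0.22), a difference of -0.56 (SE 0.14, adjusted p = 0.00222). Around the decoding centre and the mRNA channel of the small subunit 4 of 8 fell. *MRPS24*, a relative of the bacterial protein at the mRNA entrance, ranged from 2.33 to 3.42 at T0 (median 3.15) and from 2.21 to 2.63 at T1 (median 2.32). Its difference was -0.69 (SE 0.13, adjusted p = 0.000318), and its groups were separate but for horse 47.

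Other members that fell did so by smaller amounts. *MRPL52*, which is specific to mitochondria, ranged from 1.39 to 2.43 at T0 (median 2.15) and from 0.76 to 1.69 at T1 (median 1.09), with a difference of -0.93 (SE 0.15, adjusted p = 5.84e-05). *MRPL21* ranged from 2.61 to 3.47 and from 2.04 to 3.15, a difference of -0.77 (SE 0.15, adjusted p = 0.000354). *MRPL20*, an early binding protein of the large subunit in bacteria, went from a median of 0.48 (-0.05 to 0.90) to -0.13 (-0.60 to 0.38), a difference of -0.61 (SE 0.16, adjusted p = 0.00399). In each of these the T1 median lay below the lowest T0 value, although the ranges overlapped. *MRPS23* (-0.58, adjusted p = 0.00768), *MRPS27* (-0.53, adjusted p = 0.0294) and *MRPL32* (-0.53, adjusted p = 0.00342) were nearer the median of the members. The call of *MRPS23* ended under 1 of the 13 alternatives. That of *MRPS27* ended under 6, with an adjusted p of 0.244 when the scan day was a term. The second probe of *MRPS27* gave -0.15 (adjusted p = 0.821, r = 0.09).

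The remaining 25 members did not pass in the validation set, and 3 of them lay above 0. *MRPL15* ranged from 1.55 to 2.41 at T0 (median 1.90) and from 1.64 to 2.38 at T1 (median 1.97), *MRPL46* had medians of -0.15 and 0.01, and the third, *MRPS33*, named here after its values were seen, differed by 0.08. *MRPS15* had medians of 3.35 and 3.25 and a difference of -0.02 (SE 0.13, adjusted p = 0.917), which was -0.20 with normexp and with the series table and then passed (adjusted p = 0.0446 and 0.049). The ranges at T0 and T1 overlapped in each of these genes, and for *MRPL46* (-0.30 to 0.27 at T0, -0.80 to 0.31 at T1) and *MRPS33* (-0.51 to 0.09, -0.83 to 0.46) the T1 range was the wider and held the T0 range. *MRPS7* had a median of 5.30 at T0 (5.10 to 5.61) and 4.98 at T1 (4.78 to 5.43), and just missed the threshold with -0.28 (SE 0.12, adjusted p = 0.0565). It passed under 7 of the alternatives run. In some other members a wide spread went with a difference that did not pass. Among them were *MRPL49* (-0.86, SE 0.35, adjusted p = 0.052), *MRPL17* (-0.60, SE 0.32, adjusted p = 0.14) and *MRPL48* (-0.14, SE 0.29, adjusted p = 0.734). *MRPL49* passed under 4 alternatives and *MRPL17* under 2.

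Whether the change at T1 differed from one set to the other was tested on all 26 arrays together. This difference passed the threshold in none of the 69 members, and in 0.0% of the 17889 gene names tested (limma). At an unadjusted p under 0.05 there were none of the members and 99 of all gene names. The differences between sets ran from -0.51 (*MRPL15*, which was lower at T1 in each experimental horse) to 0.40, with a median of -0.02 and a median SE of 0.34. Differences between the sets within this error were not detectable with these arrays. *MRPL2*, *MRPL23* and *MRPL34* were called in both sets, which share no horse. Over all gene names tested 4.04% fell in the experimental set and 24% in the validation set. The share of all gene names called in both was not counted, so no conclusion is drawn from this overlap. The calls of *MRPL2*, *MRPL23* and *MRPL34* in the experimental set ended under 3, 4 and 4 of the alternatives run, in that order.

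The spread between horses at T1 differed among the members. Over the 13 validation T1 arrays their SD had a median of 0.32, against 0.43 over all gene names, and ran from 0.15 to 1.31. Dimmer probes had the larger SD, with r = -0.50 between the mean signal and the SD across the 69 members and -0.41 across all gene names, and the part of brightness in the spread was not tested. At T0 the median was 0.37, or 0.27 without horse 47, against 0.43 and 0.38 over all. A larger SD at T0 than at T1 was found in 42 members with horse 47 (46.3% of all gene names) and in 21 without it (36.1% of all), so the order of the spreads rested on that array.

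The widest spread was that of *MRPS18B*, a small-subunit protein, with 0.24 in horse 24 and -4.55 in horse 21 at the ends of the T1 arrays (median -1.65, SD 1.31). At T0 it ranged from -3.29 in horse 40 to -0.42 in horse 29 (SD 0.94). The T1 minus T0 difference of -0.27 (SE 0.52, adjusted p = 0.702) was small beside this spread. *MRPL49* followed with a range of -7.28 to -3.86 at T1 (SD 0.89), *MRPL17* with -2.23 to 0.42 (SD 0.79) and *MRPL45* with -3.19 to -0.93 (SD 0.73). In *MRPL49*, as in *MRPS18B*, horse 21 was the lowest and horse 24 the highest, and 2 of the 13 T1 arrays had *MRPL49* not well above background. The array of horse 21 had the lowest share of probes well above background, 60.2%. Among these T1 arrays it also had the lowest T cell (-0.96) and B cell (-2.48) marker means. Its monocyte (6.39) and platelet (-3.64) marker means were the highest. Of the 3 platelet markers with a probe, only 1 was bright enough to be tested in this set. The part of the share well above background and of the marker means in the spread was not tested.

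*MRPS18B* was read by 2 probes, and both are shown because the spread rests on both of them. The longest run of bases that they share is 6.
*MRPS18B*, brightest: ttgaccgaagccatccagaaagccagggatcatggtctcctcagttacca
*MRPS18B*, second: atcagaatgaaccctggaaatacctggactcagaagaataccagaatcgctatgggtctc

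Over the 26 arrays the levels of both probes correlated at r = 0.96, so the spread was not that of a single probe. The narrowest spreads at T1 were those of *MRPS24* (SD 0.15, 2.21 to 2.63), *MRPS30* (0.20), *MRPL32* (0.20, -1.83 to -1.06) and *MRPS22* (0.20, 0.12 to 0.80).

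The members did not rise and fall from horse to horse as a single block at T1. The correlation of each member with the mean of the other 68 over the 13 T1 arrays had a median of 0.31 and was positive in 58. It exceeded 0.5 in 15, or 21.7%, against 7.42% of the other gene names with the same mean. All values share the arrays and their scaling, and they are given as descriptions. Among the 2346 pairs the median r was 0.14, with 655 pairs (27.9%) above 0.5 and 251 below -0.5.

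The highest correlations with the others were those of *MRPL52* (r = 0.84), *MRPL20* (0.83), *MRPL24* (0.77) and *MRPL48* (0.76). The lowest were those of *MRPS27* (-0.64), *MRPL46* (-0.60), *MRPS15* (-0.36) and *MRPL15* (-0.28). *MRPL46* and *MRPL48* sit together in the central protuberance and lay at opposite ends.

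The first principal component of the members held 43.1% of their variance at T1 and the second 19.7%. The first component of all gene names tested held 25.9% of theirs. On the members' first, 18 members correlated above 0.5 and 28 below -0.5, so that the members formed opposing blocks. The component was computed from these same members, and such shares were not counted over all gene names. Opposing blocks are therefore not shown to be particular to the members. One block included *MRPS18B* (0.92), *MRPL49* (0.88), *MRPL12* (0.88) and *MRPL28* (0.87), and the other *MRPS22* (-0.83), *MRPS15* (-0.80), *MRPS23* (-0.70) and *MRPL21* (-0.70). The horses at its ends were horse 24 (8.11) and horse 17 (7.34) on one side and horse 21 (-10.3) and horse 19 (-7.46) on the other.

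This component correlated at 0.87 in size with the first component of all other gene names over the same arrays. It correlated over the 13 arrays at 0.60 with the mean of the T cell markers, at 0.54 with that of the B cell markers, at -0.64 with that of the nuclear subunits of the respiratory chain and at -0.58 with that of the cytosolic ribosomal protein genes. For the platelet and monocyte markers r was -0.45 and -0.44, for the neutrophil markers -0.12 and for the percentage of probes well above background 0.19. In the first block 12 of 18 members fell in the validation set (median -0.81) and their probes had a median GC content of 54.5%. In the second 20 of 28 fell (median -0.49) and the median GC content was 45.0%, the same as over all gene names. Of all gene names 24% fell in that set, with a median of -0.07. Across the 69 members GC content and the correlation with the component had r = 0.40. The part of base composition and of cell makeup in these blocks was not tested.

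**Figure D4:**
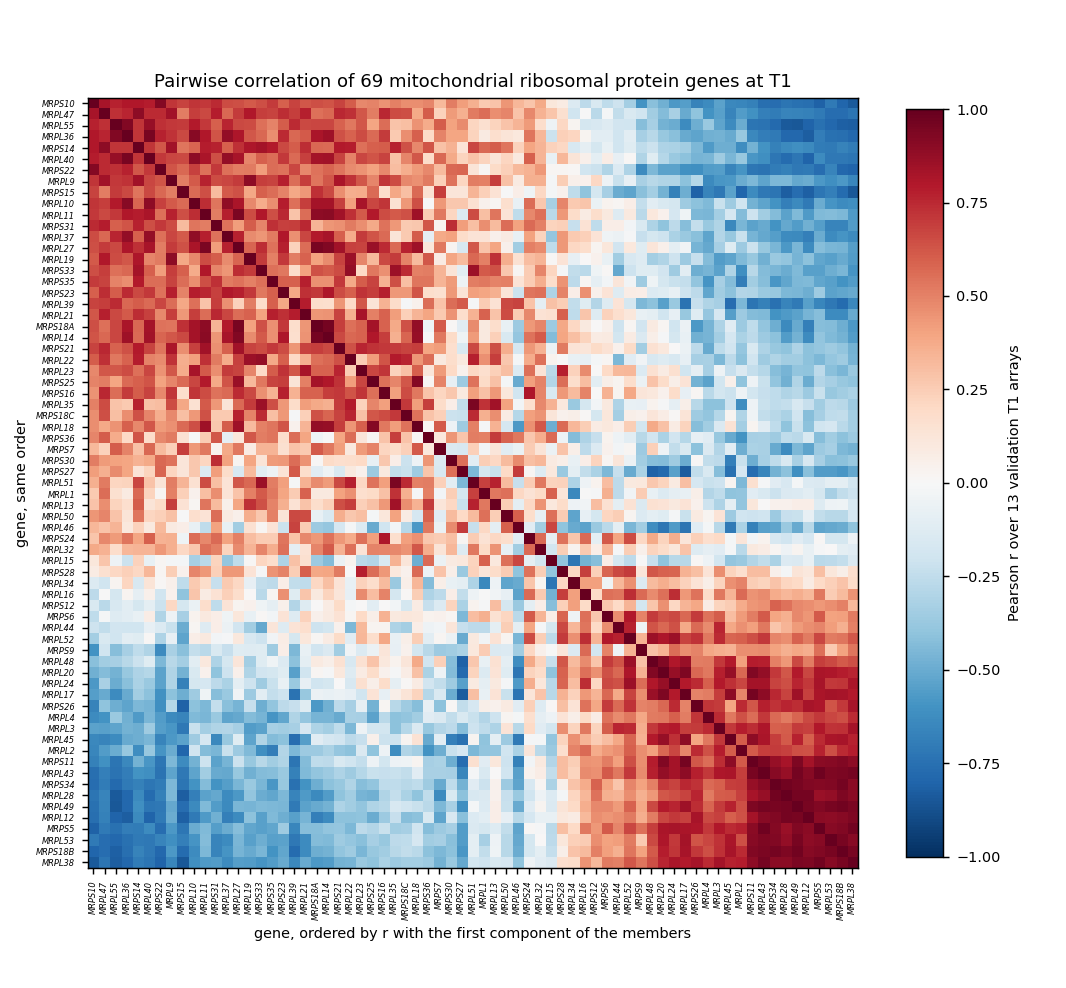
Pearson correlation over the 13 validation T1 arrays for every pair of the 69 genes (both axes, ordered by their correlation with the first principal component), from -1 (blue) to 1 (red). Red squares at both ends and blue corners between them show the blocks of 18 and 28 members at opposite ends of the component.

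With horse 47 included, the members correlated more closely at T0 than at T1, but by the median r of pairs this turned without it. Over the 7 T0 arrays the median correlation with the mean of the others was 0.63, with 45 members above 0.5, and without horse 47 it was 0.41, with 29. The median r of pairs fell from 0.42 to 0.05 on leaving this horse out.

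*MRPL35* and *MRPL22* were named by the study together with *SSBP1*, the protein that coats single-stranded mitochondrial DNA, because all of them correlated with the same axis of its joint analysis of blood data at T1. They were thus picked, in part from these samples, for varying together, and their correlations are given as a description with no test. The probe of *MRPL35* and the second probe of *MRPL22* are shown as readings of this group. The second probe of *MRPL22* followed the brightest, from which the levels below come, at r = 0.92 over the 26 arrays. For *MRPL35* the first 51 of 60 bases are printed and the capitals mark the stop codon that ends the reading frame.
*MRPL35*: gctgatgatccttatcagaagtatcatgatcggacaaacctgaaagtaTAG
*MRPL22*: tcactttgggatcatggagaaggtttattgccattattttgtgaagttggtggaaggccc

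The *MRPL35* probe lies at chr15:14909277-14909336 on the minus strand of the array's build. Its level ranged from -1.56 to -0.62 at T0 (median -1.23) and from -1.80 in horse 55 to -0.52 in horse 4 at T1 (median -1.34). That of *MRPL22* ranged from -0.89 to 0.26 (median -0.27) and from -1.35 in horse 17 to -0.08 in horse 4 (median -0.40), and *SSBP1* from -0.88 to 0.20 and from -1.15 in horse 17 to 0.16 in horse 44. The T0 and T1 ranges overlapped throughout, and the T1 minus T0 differences of -0.12 (SE 0.18), -0.27 (SE 0.17) and -0.08 (SE 0.19) did not pass.

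Over the 13 T1 arrays *MRPL35* and *MRPL22* correlated at r = 0.79 and rho = 0.81. *MRPL35* and *SSBP1* did so at r = 0.78 and rho = 0.74, and *MRPL22* and *SSBP1* at r = 0.77 and rho = 0.84. Without the 2 arrays farthest from the median of the first gene, r was 0.73, 0.63 and 0.73.

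Within scan days, as deviations from the day's mean on the 9 T1 arrays whose day held at least 2, r was 0.91, 0.78 and 0.76. At T0, over 7 arrays, the same pairs had r of 0.86, 0.85 and 0.81, and without horse 47 of 0.77, 0.91 and 0.95. Both genes lay in the second of the blocks above, with correlations of -0.53 for *MRPL35* and -0.64 for *MRPL22* with the first component.

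Several probes read 43 of the members, so that their readings could be compared. The 89 probes other than the brightest correlated with it over the 26 arrays at a median r of 0.96, with 74 above 0.8, and 83 of them had a difference below 0 in the validation set. Of the 89, 42 shared 20 or more bases with the brightest, so their agreement (median r 0.98) is no separate check. The 47 that shared fewer had a median r of 0.91, with 36 above 0.8 and 10 under 0.5. Of these 47, 41 had a difference below 0. Fitted singly, 97 of the 158 probes fell and none rose in the validation set, against 26% of all probes that fell. In the experimental set 6 of 158 fell, against 5.4%. In 21 of the 43 members every probe fell, in 11 none did and in 11 the probes differed.

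*MRPL13*, a large-subunit protein with a bacterial relative, shows how close overlapping probes came. The 60-base and the 50-base probe share 46 bases, printed in capitals.
*MRPL13*, 60 bases: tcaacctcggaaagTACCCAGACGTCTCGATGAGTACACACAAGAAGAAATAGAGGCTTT
*MRPL13*, 50 bases: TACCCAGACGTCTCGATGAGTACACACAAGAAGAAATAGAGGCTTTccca

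They differed between T1 and T0 by -0.34 and -0.35 and correlated at r = 0.99, and a further probe with at most 6 bases in common gave -0.28 (r = 0.98). None of them passed. In 10 genes (*MRPL3*, *MRPL9*, *MRPL10*, *MRPL11*, *MRPL20*, *MRPS7*, *MRPS15*, *MRPS25*, *MRPS27* and *MRPS31*) a probe correlated with the brightest below 0.5, and all of these probes shared fewer than 20 bases with it.

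*MRPS7*, a head protein of the small subunit, is one of these. Its 50-base probe gave -0.28 and did not pass, whereas its 60-base probe gave -1.07 (SE 0.39, adjusted p = 0.029) with r = 0.27 between them, and this probe is shown as the one that passed.
*MRPS7*, 60 bases: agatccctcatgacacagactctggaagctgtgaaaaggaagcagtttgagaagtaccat

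The 50-base probe of *MRPS7* carries a description of a mouse gene on the array, as do the brightest probes of *MRPL11*, *MRPL22*, *MRPL46* and others, 9 members in all, of which 4 fell in the validation set. For *MRPL10* the probes gave -0.47 and -0.72 with r = 0.16. For *MRPL20* 5 overlapping 60-base probes fell by 0.59 to 0.65, while a 50-base probe elsewhere gave 0.10. Members read by a 50-base probe fell in 10 of 21 cases (median -0.37) and those read by a 60-base probe in 34 of 48 (median -0.60), against 24% of all gene names. Which probe better represents a transcript was not tested.

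**Figure D5:**
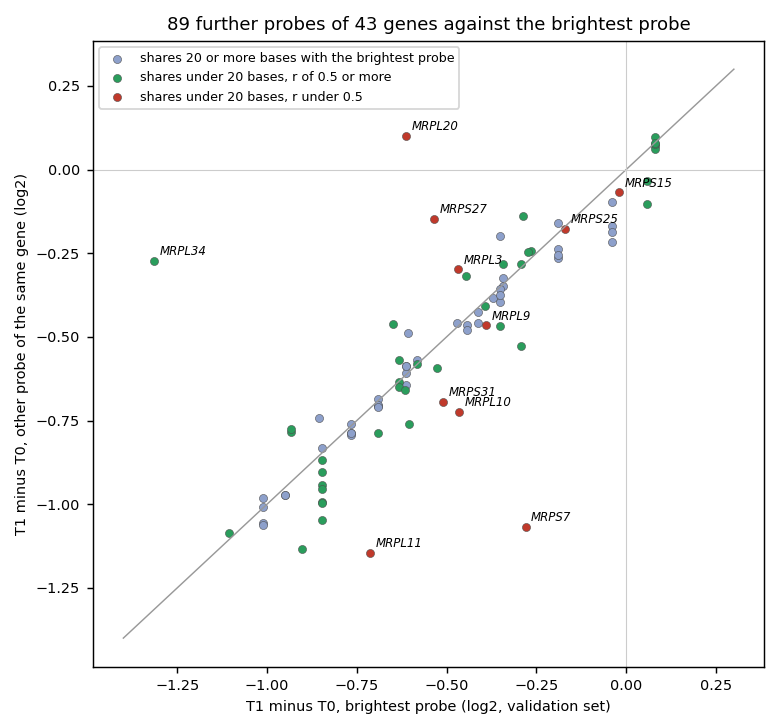
Difference between T1 and T0 in the validation set (log2) by the brightest probe of a gene (x axis) and by each of its further probes (y axis), for 89 probes of 43 genes, with the line of equality. Most points lie along the line, and the points away from it are probes that share fewer than 20 bases with the brightest, such as *MRPL34* (-1.32 against -0.27) and *MRPS7* (-0.28 against -1.07).

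Other genes of mitochondrial translation, which do not carry these symbols, were described in the same way. Of 37 tested in the validation set 14 fell and 1 rose, with a median of -0.36, against 24% and 20.2% of all gene names. None of 36 changed in the experimental set, where the median was -0.29 and 10.3% of all gene names changed. Those that fell most were *CARS2*, a mitochondrial cysteinyl-tRNA synthetase (-1.52, SE 0.38, adjusted p = 0.00301), *MTG1*, a GTPase of ribosome assembly (-1.28, SE 0.35, adjusted p = 0.00568), and *VARS2*, the valyl-tRNA synthetase (-1.11, SE 0.26, adjusted p = 0.00175).

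*GADD45GIP1*, which encodes a further protein of the large subunit, ranged from 0.89 to 1.71 at T0 (median 1.29) and from -0.03 to 0.76 at T1 (median 0.37). Its groups did not overlap, and the difference was -0.96 (SE 0.14, adjusted p = 2.04e-05). *TUFM*, the elongation factor Tu of mitochondria, ranged from -0.55 to 1.52 and from -1.42 to 0.82, a difference of -0.91 (SE 0.28, adjusted p = 0.0121), and *PARS2*, the prolyl-tRNA synthetase, differed by -0.95 (SE 0.34, adjusted p = 0.0288). The 1 gene that rose was *NOA1*, a GTPase needed for the small subunit (0.81, SE 0.20, adjusted p = 0.00303). *TFAM*, which packages and transcribes mitochondrial DNA, differed by -0.32 (SE 0.15, adjusted p = 0.101).

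Beside these, 40 of 73 cytosolic ribosomal protein genes fell and 1 rose in the validation set, with a median of -0.53, and 1 of 73 fell in the experimental set, with a median of -0.58. Over all gene names 24% fell in the validation set and 4.04% in the experimental set. Of the nuclear subunits of the respiratory chain, some of whose partners are made on mitochondrial ribosomes, 20 of 75 fell and 2 rose (median -0.24), a share near the 24% of all gene names that fell, and in the experimental set none fell and 1 rose (median -0.33), against 4.04% and 6.22% of all. The members' own counts were 44 of 69 and 3 of 69. Whether these groups differ was not tested.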

How the data were processed

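Whole-blood RNA of 26 samples from 23 horses was hybridized in 1 colour to an equine Agilent array. The authors deposited scanner files whose processed signal is an intensity made by Feature Extraction (version 10.7.3.1), background-corrected but without normalization across arrays. They also deposited a series table of log2 values, which ranked the spots of an array as the background-subtracted median signal does and served as an alternative. The array files name EquCab1 as their build. The submitters' processing notes name limma.

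Here, control spots and those that the scanner software marked as outliers (386 in total) were removed, saturated spots were kept and repeated spots of a probe were averaged. From the log2 signals the array's 75th percentile was subtracted. The brightest probe stood for each gene name, and 1 probe whose name and description disagreed was left out. Gene names well above background on at least 3 of 6 arrays (experimental) or 7 of the arrays (other fits) were tested with limma 3.58.1 in R 4.3.3, with Benjamini-Hochberg adjustment over all of them and a threshold of 0.05. The experimental fit held the horse as a fixed block, the validation fit no block, and the difference between sets the horse as a random block. The labels give each experimental pair the same animal, and the deviations of both arrays from their group means correlated at r = -0.00817, 0.212 and 0.192 in horses 2, 32 and 41. The fits were tested on simulated data. Other values were computed in Python 3.11.15 with numpy 2.4.6, pandas 2.3.3 and scipy 1.17.1. Precision is limited by how many arrays there are.

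The members and lists were chosen with earlier results of these data known. Genes were named by rule: *MRPL35*, *MRPL22* and *MRPS24*, which the study names, up to 6 members past the threshold in each direction and comparison, the 4 with the highest level, the 4 with the largest and the 4 with the smallest SD at T1, the 4 with the highest and the 4 with the lowest correlation with the other members, the 6 other gene names with a symbol at either end of that correlation, up to 6 other mitochondrial translation genes past the threshold, and *SSBP1* and *TFAM*. Of the 69 members 54 had a gene ID in a RefSeq gene table, used for names only, and all 54 had the same symbol there.

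The results were recomputed with quantile normalization, with or without normexp background correction (offset 50), and with the series table. Further alternatives were no filter or a filter on every array, the mean over the probes of a gene name, no replicate block and 1 fit of all 26 arrays. Scan day, sex or slide was also put in the model, and arrays were left out. For the 29 members with probes under several gene names, that mean did not cover every probe. Fits of every probe, values within scan days and the validation set without the 4 T1 arrays under 64% of probes well above background were added after seeing the data.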

Additional observations from a re-analysis of the deposited data

Results flagged for a closer look

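In groups of 4 to 10 arrays, a lone highest or lowest array was looked for in 37 sets of values, of which chance would set apart about 1 in 20. It was found in 4, each time the validation T0 array of horse 47. On that array *MRPL23* stood at 0.91 and *MRPL32* at -1.75, both below the other 6 T0 arrays, and the mean of the neutrophil markers (5.41) and of the immature neutrophil granule markers (0.94) lay above them. Without it, 48 members fell in place of 44 and 13 in place of none had every T1 array below every T0 array. Over all gene names 26% fell in place of 24%, and 6.33% in place of 0.764% were separated in this way.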

How the results depend on the processing

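In the validation set the count of members that fell stayed between 33 and 48 under the alternatives run, and none rose. The share of all gene names that fell ran from 16.3% with no filter to 26% without T0 horse 47. In the experimental set it moved: 12 members fell with all 26 arrays in a single fit (6.73% of all gene names), 8 with a filter on every array (8.21%), 7 without the replicate block (4.5%), 6 with quantile normalization (5.85%), 19 with normexp and quantile normalization (7.07%), 19 with the series table (6.65%), 5 in the fit of every probe (5.4% of all probes), 2 with the mean over a gene's probes (4.11%), and 0 with no filter on dim probes, where 6 of all gene names fell (0.0246%). Leaving out 1 horse gave 0 to 3, with 0 without horse 2 and 0 without horse 32. The replicate block could change no direction. With 1 array of each horse at each time, the fitted difference is the same with or without it. The count of the difference between sets stayed at 0 under the alternatives run. At T1 the median SD, the shared variation and the correlations of *MRPL35*, *MRPL22* and *SSBP1* kept their direction. The order of T0 and T1 did not. Without T0 horse 47 the members' median SD at T0 went from 0.37 to 0.27, against 0.32 at T1. The median r of pairs at T0 went from 0.42 to 0.05, against 0.14 at T1.

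Among the genes named singly, 574 values in all kept their direction and their side of the threshold. Another 36 newly passed it, 20 no longer passed and 17 changed sign, most of these close to 0. Some alternatives changed only the filter or the replicate block, or fitted all 26 arrays at once. They left the fitted differences as they were, so no value could change sign there. In the experimental set 21 newly passed and 11 no longer did, and in the validation set 15 and 9. The 11 all belong to the members called there, *MRPL2* (under 3 alternatives), *MRPL23* (4) and *MRPL34* (4, among them the mean over its probes, with -0.79 and an adjusted p of 0.138). In the validation set *MRPS7* newly passed under 7 alternatives, *MRPL49* under 4 and *MRPL17* and *MRPS15* under 2 each, while *MRPS27* no longer passed under 6, *MRPS22* under 2 and *MRPS23* under 1. *MRPL15* in the validation set was -0.059 with normexp, -0.053 with quantile normalization and -0.058 with the series table, *MRPL48* was 0.015 with normexp and 0.014 with the series table, and *MRPS15* was 0.066 with the scan day as a term. In the experimental set *MRPS15* was -0.062 with normexp, -0.10 with quantile normalization and -0.043 with the series table. With 1 horse left out, *MRPS15* ran from -0.29 (without horse 32) to 0.38, *MRPL35* from -0.41 to 0.079, *MRPS22* from -0.31 to 0.021 and *MRPS7* from -0.27 to 0.097 (each highest without horse 2), and *MRPL45* from -0.83 to 0.0073, *MRPL49* from -1.32 to 0.045 and *MRPS18B* from -0.70 to 0.031 (each highest without horse 32). *MRPL32* was 0.66 with the series table, which keeps a spot marked as an outlier on the T1 array of horse 32. The cause of the other changes was not tested. Promoter motifs were not run, since no promoter sequences were used here.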

Other observations

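Over the 13 validation T1 arrays, the other gene names with the highest correlation with the members' mean were *MRTO4* (r = 0.91), which acts in cytosolic ribosome assembly, *ITM2A* (0.90), *SYNJ2BP* (0.88), a protein of the mitochondrial outer membrane, *TMEM230* (0.87), *PEX2* (0.86), a peroxisomal ubiquitin ligase, and *TIMM10* (0.84), a chaperone of mitochondrial protein import. *MRTO4* (-0.95, SE 0.18), *ITM2A* (-0.87, SE 0.21) and *TIMM10* (-0.60, SE 0.21) fell in the validation set. The lowest were *CBFB* (-0.95), *NFE2L2* (-0.92), the regulator of antioxidant genes, *SYNJ1* (-0.91), *ZBTB34* (-0.90), *BCLAF1* (-0.89) and *PPP3CA* (-0.89), a catalytic subunit of calcineurin, of which *NFE2L2* (1.38, SE 0.17), *PPP3CA* (1.21, SE 0.20), *ZBTB34* (0.72, SE 0.21) and *SYNJ1* (0.59, SE 0.15) rose. These names were picked from 17307 gene names by their correlation, which is given as a description.

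The members' mean at T1 correlated with that of the immature neutrophil granule markers at r = 0.66 (0.42 without the 2 arrays farthest from the median) and with that of the monocyte markers at -0.61 (-0.33 without them), over the same 13 arrays. It correlated with that of the neutrophil markers at 0.53 (0.19 without them), of the platelet markers at -0.51 (-0.23) and of the NK and cytotoxic cell markers at 0.49 (0.38). For the B cell markers r was 0.33, for the erythroid markers 0.29, for the T cell markers 0.18 and for the percentage of probes well above background -0.01. Only 1 of 3 platelet and 3 of 5 erythroid markers with a probe were bright enough to be tested in this set. In *MRPL34* both probes are 60 bases long with a GC content of 55.0%, and they gave T1 minus T0 differences of -1.32 and -0.27.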
